A study of Sus scrofa with 32 samples.

Results

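Solute carriers are the membrane proteins that move sugars, amino acids, organic acids, ions, metals and vitamins into and out of cells and organelles. The genes described here were the annotated members of the SLC and SLCO families in the loin muscle (longissimus dorsi) of pigs, with the mitochondrial SLC25A family left out. They were matched by gene symbol, in a choice made with earlier results of these data known. Of the 17930 gene identifiers listed in the deposited files 212 matched, and 123 of the 212 had enough reads to be tested. A symbol could be given to 10836 identifiers (60.4%). Of 315 solute carrier symbols looked for, 106 had no match. Among them were SLC2A1, SLC2A3, SLC7A5, SLC16A1, SLC39A14, SLC30A1, SLC11A2, SLC22A5, SLC20A1 and SLC8A1, which are not analysed here. RNA was sequenced from wild-type pigs of 4 breed groups at 6 months, 8 libraries per group, to examine transcriptional variation between breeds. The groups were DLDPL (Duroc x Landrace x Dapulian), LDPL (Landrace x Dapulian), DPL (Dapulian, an indigenous Chinese breed) and L (Landrace, a lean commercial breed). All pigs were raised under like conditions on like feed, per the labels.

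Most solute carriers are either facilitators that let a substrate run down its gradient or secondary active carriers that couple it to sodium, protons or another solute. In skeletal muscle, insulin and contraction bring the glucose carrier GLUT4 to the surface, proton-coupled monocarboxylate carriers release or take up lactate, and the creatine carrier loads fibres with creatine for the phosphocreatine buffer. Amino acid carriers of the SNAT and LAT types feed protein synthesis and mTORC1 signalling, and zinc, magnesium and vitamin carriers supply enzyme cofactors.

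Depth was 21733000 to 29737000 reads per library, rounded to 1000 reads. The 212 solute carriers together held 0.133 to 0.244% of them (32467 to 59421 reads). The tissue label fitted its markers: the 7 muscle fibre markers found added up to 57750 to 159600 CPM (counts scaled to library size) over the 32 libraries. The sum was 71270 to 121200 CPM (median 99090) in DLDPL, 90250 to 127100 CPM (median 100800) in LDPL, 59610 to 119300 CPM (median 87080) in DPL and 57750 to 159600 CPM (median 138500) in L. Of these 7 fibre markers, 0 were higher and 1 was lower than in L in DLDPL and in LDPL, while 2 were higher and 4 lower in DPL. Their median log2 change in DPL was -0.53, against -0.02 over all genes. The L libraries carry replicate numbers in a sequence of their own. Separate handling of that group and its breed therefore cannot be told apart, and each comparison with L has this limit. Immediate early genes, which respond to stress and handling within minutes, stood apart in the same comparisons: 10 of 11 tested were higher and 0 were lower than in L in each of DLDPL, LDPL and DPL. Their summed level was 148 to 2260 CPM (median 1307) in DLDPL, 658 to 1847 CPM (median 1324) in LDPL, 996 to 3529 CPM (median 2032) in DPL and 47.4 to 206 CPM (median 114) in L. The share of reads from 13 mitochondrially encoded genes was 14.78 to 29.74% in DLDPL, 15.78 to 30.02% in LDPL, 22.2 to 37.33% in DPL and 17.3 to 24.76% in L. Fibroblast markers, of which 5 were tested, were called lower than in L for 0 genes in DLDPL, 3 in LDPL and 4 in DPL. Their summed levels were 941 to 2113 CPM in DLDPL, 544 to 1602 CPM in LDPL, 343 to 1351 CPM in DPL and 1292 to 2279 CPM in L. Markers of immature fibres and satellite cells were called lower than in L for 2 of 7 genes in DLDPL, 3 in LDPL and 6 in DPL, and lymphocyte markers for 4 of 4 genes in DLDPL, 2 in LDPL and 3 in DPL. The 6 lymphocyte markers found were low, with a median sum of 3.45 CPM in DLDPL, 3.63 CPM in LDPL and 3.58 CPM in DPL. In L the median sum was 6.35 CPM and the highest was 22.4 CPM. Of 8 endothelial markers, 1 was lower in DLDPL, 3 were lower in LDPL, and 3 were lower and 1 higher in DPL. Of 7 smooth muscle and pericyte markers, 3 were higher in DLDPL, 2 in LDPL and 2 in DPL, where 2 were also lower. Of 3 adipocyte markers tested, 2 were higher in DLDPL and 0 were called in LDPL or DPL, and their median log2 change was 1.37 in DLDPL, -0.47 in LDPL and 0.61 in DPL. Of 3 red blood cell markers tested, 1 was higher in DLDPL, and of 3 nerve and Schwann cell markers, 1 was lower in DPL. Beside these counts, 11.6% of all genes were called higher and 10.3% lower than in L in DLDPL. The figures were 14.9% and 14.7% in LDPL, and 19.1% and 18.9% in DPL. Of 7 macrophage markers, 0 were called. The part of these differences in the results below was not tested. In bulk tissue, fewer cells of a type and less RNA per cell cannot be told apart.

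Per transcript length, in RPKM as deposited (reads scaled to gene length and library size), carriers of creatine, amino acids and intracellular glucose 6-phosphate led the family. The creatine carrier SLC6A8 averaged 63.6 RPKM over the 32 libraries. SLC3A2, the heavy chain that some amino acid carriers, such as SLC7A8, need to reach the membrane, averaged 63.5 RPKM. SLC37A4, which carries glucose 6-phosphate across the endoplasmic reticulum membrane, averaged 42.9 RPKM. The next were SLC12A2 (NKCC1, sodium, potassium and chloride uptake) at 30.8 RPKM and the choline carrier-like SLC44A2 at 30.3 RPKM. The amino acid carriers SLC7A8 (LAT2) at 29.7 RPKM and SLC43A2 (LAT4) at 23.7 RPKM came after them, both named for their rank. SLC16A3 (MCT4, lactate export) followed at 21.5 RPKM, with the glutamine carrier SLC38A3 at 20.3 RPKM, the thiamine carrier SLC19A2 at 20.2 RPKM and the nucleoside carrier SLC29A1 at 16.8 RPKM. SLC2A4, which encodes GLUT4, averaged only 2.80 RPKM. In all, 22 members averaged at least 10 RPKM, 55 lay between 1 and 10 RPKM and 135 lay under 1 RPKM. The 89 members below the filter on low counts had a median of 0.0165 RPKM and reached at most 0.28 RPKM. Among them were the taurine carrier SLC6A6, with 105 reads over all libraries and 0.0682 RPKM, and the iron exporter SLC40A1. The urea carrier SLC14A2 was the higher of its 2 list members at 0.00538 RPKM.

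**Figure D1:**
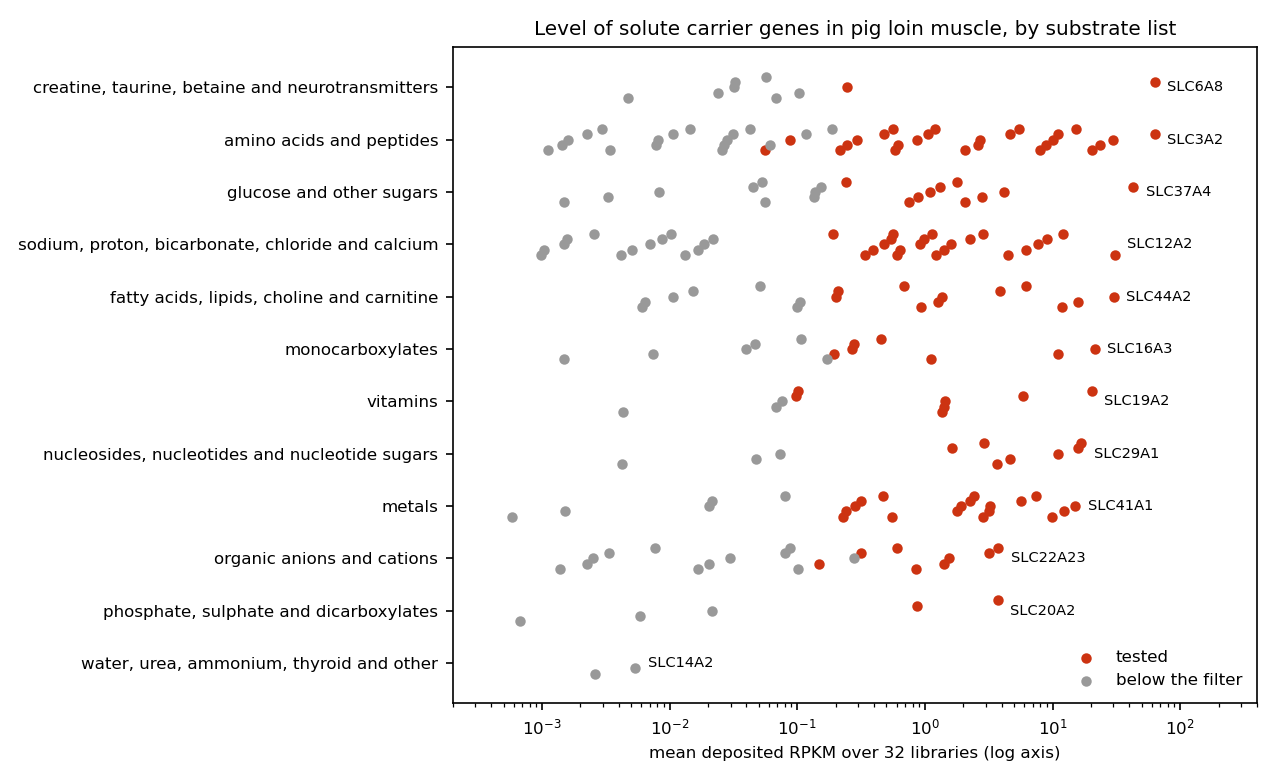
Mean deposited RPKM over 32 libraries (log axis) of each solute carrier, in rows by substrate list; red points were tested and grey points lay below the filter on low counts. SLC6A8 and SLC3A2 stand farthest right at 63.6 and 63.5 RPKM, and the member with the highest mean of each list is named.

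The share of solute carriers called was near the share of all genes called in each comparison of breed groups. By edgeR's quasi-likelihood test with Benjamini-Hochberg adjustment over 12821 genes, 39 of the 123 tested (31.7%) differed among the 4 groups, against 37.4% of all genes. In DLDPL against L, 14 were higher and 8 lower, together 17.9% of those tested, against 21.9% of all genes (11.6% higher, 10.3% lower). In LDPL against L, 21 were higher and 13 lower, 27.6% against 29.6% of all genes (14.9% higher, 14.7% lower). In DPL against L, 24 were higher and 17 lower, 33.3% against 38.0% of all genes (19.1% higher, 18.9% lower). The DPL split differed between settings. Limma on log2(RPKM + 1) called 12 higher and 23 lower in DPL, 8 higher and 7 lower in DLDPL, and 15 higher and 13 lower in LDPL. RPKM scales to total reads, and the median DPL change of all genes was -0.12 there in place of -0.02. With the size factors of DESeq2, edgeR called 25 higher and 15 lower in DPL. Test, scaling and added constant change together in the limma fit, and their separate parts were not tested. The groups did not overlap in any library for 6 higher and 1 lower member in DLDPL against L (2.44% and 1.54% of all genes), 4 higher and 1 lower in LDPL against L (3.97% and 2.51%), and 8 higher and 4 lower in DPL against L (4.12% and 3.42%). The 3 comparisons share the L libraries and are therefore not independent of each other.

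**Figure D2:**
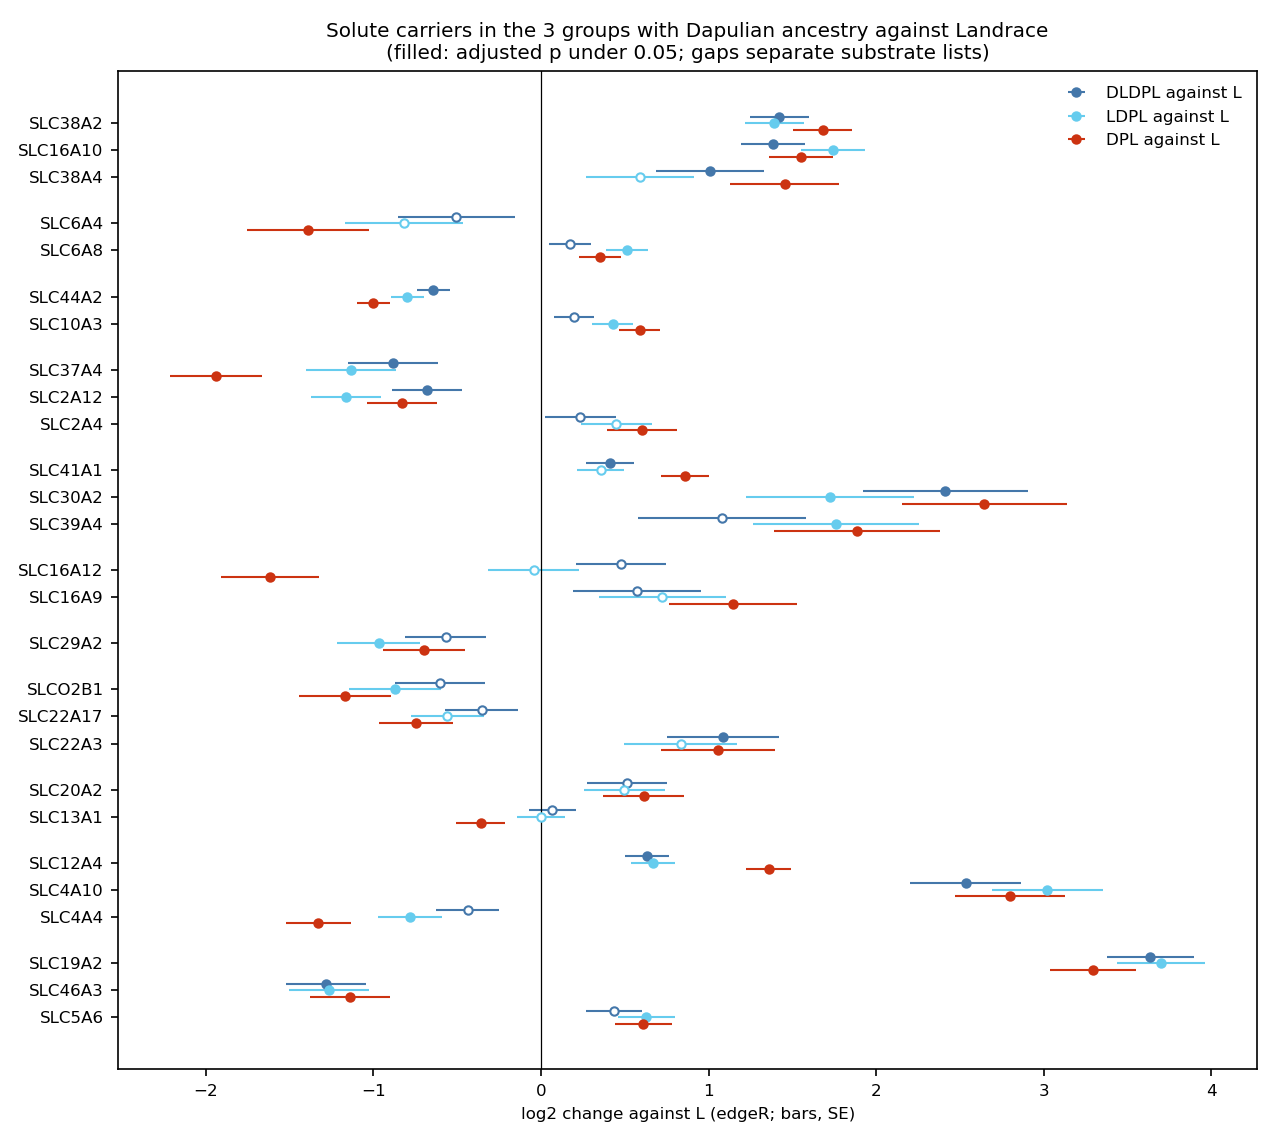
Log2 change against L (edgeR, bars are SE, 8 libraries per group) in DLDPL, LDPL and DPL for up to 3 called solute carriers per substrate list with the smallest adjusted p in DPL against L. Filled points have an adjusted p under 0.05; SLC19A2 lies farthest right at 3.63, 3.70 and 3.29, and SLC37A4 in DPL lies farthest left at -1.94.

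Among vitamin carriers, the thiamine carrier SLC19A2 (ENSSSCG00000006290) was 9.80- to 13.0-fold higher in the 3 groups with Dapulian ancestry than in L. Thiamine, once phosphorylated, is the cofactor of pyruvate dehydrogenase and transketolase. SLC19A2 had 49.1 to 163 CPM (median 108.5) in DLDPL, 66.9 to 177 CPM (median 88.1) in LDPL, 50.2 to 121 CPM (median 75.5) in DPL and 6.28 to 13.8 CPM (median 7.58) in L. No library of the other groups came down to the highest L library, which was replicate 9. The rise was 12.4-fold in DLDPL (log2 3.63 ± 0.26 SE, adjusted p = 6.7e-12), 13.0-fold in LDPL (3.70 ± 0.26, adjusted p = 4.33e-12) and 9.80-fold in DPL (3.29 ± 0.26, adjusted p = 2.9e-11). DLDPL and LDPL were not called different from DPL, at 0.34 ± 0.23 (adjusted p = 0.436) and 0.41 ± 0.23 (adjusted p = 0.373). The immediate early genes move in the same comparisons, as given above, and their part in this result was not tested.

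The other vitamin carriers changed less. SLC46A3, a lysosomal carrier listed here beside its relative the folate carrier, had 1.30 to 3.86 CPM (median 2.46) in DLDPL, 1.65 to 4.23 CPM (median 2.36) in LDPL, 1.30 to 3.70 CPM (median 2.95) in DPL and 3.60 to 10.1 CPM (median 5.82) in L. It fell in all 3, by 1.28 (adjusted p = 0.000208), 1.27 (adjusted p = 0.000148) and 1.14 (adjusted p = 0.000296) on the log2 scale in DLDPL, LDPL and DPL. SLC5A6, the carrier of biotin and pantothenate, had 11.1 to 22.3 CPM (median 14.9) in DLDPL, 9.65 to 28.4 CPM (median 19.2) in LDPL, 14.5 to 25.2 CPM (median 17.4) in DPL and 10.1 to 13.5 CPM (median 12.0) in L. Every DPL library lay above every L library, while the crosses overlapped with L. SLC5A6 rose 1.53-fold in DPL (log2 0.61 ± 0.17, adjusted p = 0.00466, lost by limma) and 1.55-fold in LDPL (adjusted p = 0.00507). In DLDPL its change was 0.44 ± 0.17 (adjusted p = 0.0613). Its locus overlaps ATRAID in the RefSeq gene table for Sscrofa11.1, and the kit does not mark strand. Among the other named carriers, SLC2A12, SLC22A3, SLC38A4 and SLC12A2 also overlap a protein-coding gene. SLC12A4, SLC16A10, SLC20A2, SLC29A1, SLC4A4, SLC6A4 and SLCO2B1 overlap non-coding RNA genes only. The part of such neighbours in the counts was not tested. Of 7 vitamin carriers tested, 1 rose and 1 fell in DLDPL, 2 rose and 1 fell in LDPL, and 2 rose and 2 fell in DPL. That was 28.6%, 42.9% and 57.1% of them, against 21.9%, 29.6% and 38.0% of all genes. Of 12 other genes of thiamine and vitamin use tested, 2 rose and 0 fell in DLDPL, 0 rose and 4 fell in LDPL, and 3 rose and 2 fell in DPL. The shares called were 16.7% in DLDPL, 33.3% in LDPL and 41.7% in DPL, near those of all genes (21.9%, 29.6% and 38.0%). In DPL these included FLAD1, which makes flavin adenine dinucleotide, at 0.74 ± 0.12 (adjusted p = 6.61e-06). They also included PDHA1, a subunit of the thiamine-dependent pyruvate dehydrogenase, at 0.88 ± 0.15 (adjusted p = 1.88e-05).

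**Figure D3:**
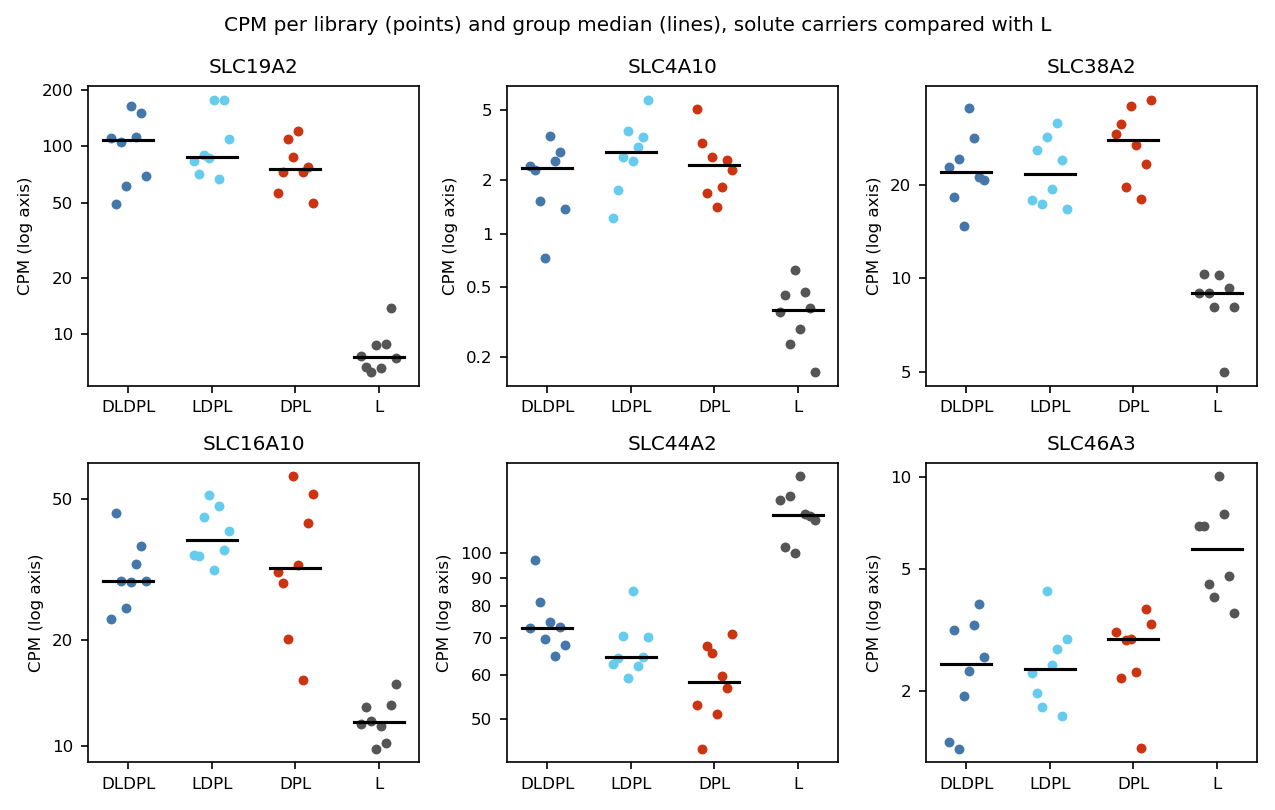
CPM of 6 solute carriers in each library (points, log axis) with the group median (line), 8 libraries per group. SLC19A2, SLC4A10, SLC38A2 and SLC16A10 lie above every L library in DLDPL, LDPL and DPL, SLC44A2 lies below every L library, and SLC46A3 overlaps with L.

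Amino acid carriers formed the largest list, and in it a neutral and an aromatic amino acid carrier rose in all 3 groups. SLC38A2 (SNAT2, ENSSSCG00000000808) is a sodium-coupled carrier of small neutral amino acids that cells induce when amino acids are short. It had 14.7 to 35.2 CPM (median 22.0) in DLDPL, 16.7 to 31.5 CPM (median 21.7) in LDPL, 17.9 to 37.5 CPM (median 27.9) in DPL and 4.99 to 10.4 CPM (median 8.98) in L. All 24 libraries of the first 3 groups lay above all 8 of L. It rose 2.68-fold in DLDPL (log2 1.42 ± 0.18, adjusted p = 5.83e-07), 2.63-fold in LDPL (1.39 ± 0.18, adjusted p = 4.65e-07) and 3.21-fold in DPL (1.68 ± 0.18, adjusted p = 1.03e-08). SLC16A10 (TAT1, ENSSSCG00000004419), a facilitator of aromatic amino acids, had 22.9 to 45.7 CPM (median 29.4) in DLDPL, 31.6 to 51.2 CPM (median 38.4) in LDPL, 15.4 to 58.1 CPM (median 31.9) in DPL and 9.85 to 15.0 CPM (median 11.7) in L. Here too no library overlapped with L, and DPL spread the widest. It rose 2.61-fold in DLDPL (1.39 ± 0.19, adjusted p = 3.12e-06), 3.35-fold in LDPL (1.74 ± 0.19, adjusted p = 3.96e-08) and 2.93-fold in DPL (1.55 ± 0.19, adjusted p = 1.41e-07).

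SLC38A4 (SNAT4, neutral and cationic amino acids) had 12.8 to 68.7 CPM (median 33.6) in DLDPL, 20.5 to 39.6 CPM (median 26.9) in LDPL, 18.1 to 84.6 CPM (median 53.1) in DPL and 6.74 to 45.3 CPM (median 15.4) in L. The groups overlapped, and the change was 1.01 ± 0.32 in DLDPL (adjusted p = 0.0225), 0.59 ± 0.32 in LDPL (adjusted p = 0.165) and 1.45 ± 0.33 in DPL (adjusted p = 0.000629). SLC3A2, the LAT heavy chain, had 83.9 to 159 CPM (median 114) in DLDPL, 101 to 172 CPM (median 144.5) in LDPL, 79.4 to 263 CPM (median 135.5) in DPL and 50.4 to 138 CPM (median 77.3) in L. Its change was 0.49 ± 0.21 in DLDPL (adjusted p = 0.0923), 0.71 ± 0.21 in LDPL (adjusted p = 0.0102) and 0.66 ± 0.21 in DPL (adjusted p = 0.012). The DPL rise was not called without DPL replicate 21 or by limma. Of 26 amino acid and peptide carriers tested, 5 rose and 0 fell in DLDPL, 7 rose and 1 fell in LDPL, and 7 rose and 2 fell in DPL. That was 19.2%, 30.8% and 34.6% of them, near the 21.9%, 29.6% and 38.0% of all genes. The median log2 change of these 26 carriers in DPL was 0.18, against -0.02 over all genes. With limma on log2(RPKM + 1) the DPL counts were 4 rises and 4 falls and the median was 0.04. Without L replicate 2 the DLDPL count was 3 rises. Of 13 other genes of the amino acid response and mTORC1 tested, 3 rose and 1 fell in DLDPL, 2 rose and 2 fell in LDPL, and 4 rose and 2 fell in DPL. The shares called were 30.8% in DLDPL, 30.8% in LDPL and 46.2% in DPL, against 21.9%, 29.6% and 38.0% of all genes. The smallest adjusted p was that of PPP1R15A, a regulator that restores translation after stress. It rose by 2.52 ± 0.24 in DLDPL (adjusted p = 4.52e-09), 2.65 ± 0.24 in LDPL (adjusted p = 1e-09) and 3.07 ± 0.25 in DPL (adjusted p = 4.41e-11). LAMTOR1, a lysosomal anchor of mTORC1, rose by 0.36 ± 0.11 in DLDPL (adjusted p = 0.0176) and 0.53 ± 0.11 in DPL (adjusted p = 0.00028). It was 0.17 ± 0.11 in LDPL (adjusted p = 0.234).

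The creatine carrier differed modestly. SLC6A8 had 151 to 207 CPM (median 182) in DLDPL, 175 to 271 CPM (median 228) in LDPL, 158 to 245 CPM (median 205) in DPL and 109 to 230.0 CPM (median 158) in L. The groups overlapped throughout. The change was 0.17 ± 0.13 in DLDPL (adjusted p = 0.341), 0.51 ± 0.13 in LDPL (adjusted p = 0.00234) and 0.35 ± 0.13 in DPL (adjusted p = 0.0261). The DPL call was lost without L replicate 2 or 7, without DPL replicate 21 or 23, by limma, and in the fit of these 2 groups alone. The other tested member of its list was the serotonin carrier SLC6A4. Its level was 0.432 to 1.75 CPM (median 1.18) in DLDPL, 0.248 to 1.54 CPM (median 0.916) in LDPL, 0.422 to 1.14 CPM (median 0.522) in DPL and 0.852 to 3.11 CPM (median 1.34) in L. It fell 2.62-fold in DPL (log2 -1.39 ± 0.36, adjusted p = 0.00286). It was -0.50 ± 0.35 in DLDPL (adjusted p = 0.312) and -0.82 ± 0.35 in LDPL (adjusted p = 0.0777).

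Of 7 genes tested in the monocarboxylate list, all of the SLC16 family, 0 were called in DLDPL or LDPL against L, and 1 rose and 1 fell in DPL. That was 28.6% of them in DPL, against 38.0% of all genes, where DLDPL and LDPL had 21.9% and 29.6% of all genes called. The lactate exporter SLC16A3 (MCT4) had 21.9 to 79.7 CPM (median 47.3) in DLDPL, 38.0 to 70.2 CPM (median 48.6) in LDPL, 27.2 to 51.9 CPM (median 40.2) in DPL and 24.6 to 73.6 CPM (median 49.3) in L. Its log2 change was -0.07 ± 0.21 in DLDPL (adjusted p = 0.853), 0.03 ± 0.21 in LDPL (adjusted p = 0.938) and -0.33 ± 0.21 in DPL (adjusted p = 0.219). SLC16A12 (MCT12, ENSSSCG00000010455), which carries creatine, had 1.38 to 4.28 CPM (median 3.19) in DLDPL, 1.34 to 2.50 CPM (median 2.19) in LDPL, 0.136 to 1.21 CPM (median 0.761) in DPL and 1.29 to 3.53 CPM (median 1.88) in L. Every DPL library lay below every library of the other 3 groups. SLC16A12 fell 3.07-fold in DPL against L (log2 -1.62 ± 0.29, adjusted p = 4.76e-05). It was 0.48 ± 0.27 in DLDPL (adjusted p = 0.207) and -0.04 ± 0.27 in LDPL (adjusted p = 0.922). SLC16A9 (MCT9) had 2.88 to 6.85 CPM (median 4.27) in DLDPL, 2.25 to 10.5 CPM (median 4.50) in LDPL, 1.42 to 15.7 CPM (median 4.98) in DPL and 0.925 to 6.24 CPM (median 2.51) in L. It rose 2.21-fold in DPL (1.15 ± 0.38, adjusted p = 0.0169), a call lost without DPL replicate 19 and by limma. Among 6 other tested genes of lactate and pyruvate handling, 1 rose and 0 fell in DLDPL and in LDPL, and 1 rose and 3 fell in DPL. The shares called were 16.7% in DLDPL and in LDPL, against 21.9% and 29.6% of all genes, and 66.7% in DPL, against 38.0%. MPC2, a subunit of the mitochondrial pyruvate carrier, rose by 0.48 ± 0.11 in DLDPL (adjusted p = 0.00176), 0.55 ± 0.11 in LDPL (adjusted p = 0.000281) and 1.15 ± 0.11 in DPL (adjusted p = 2.04e-09). LDHA, the muscle-type lactate dehydrogenase subunit, fell by 0.93 ± 0.17 on the log2 scale in DPL (adjusted p = 6.42e-05). It was -0.16 ± 0.17 in DLDPL (adjusted p = 0.543) and -0.23 ± 0.17 in LDPL (adjusted p = 0.331).

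Among sugar carriers, SLC37A4 and GLUT12 fell in all 3 groups against L, and GLUT4 was called higher in DPL. SLC37A4 (ENSSSCG00000015105) had 38.0 to 154 CPM (median 86.4) in DLDPL, 44.9 to 127 CPM (median 70.8) in LDPL, 29.1 to 62.5 CPM (median 41.1) in DPL and 51.7 to 292 CPM (median 154) in L. L replicate 2 was the lowest of its group, and the other 7 L libraries lay above every DPL library. The fall was 1.85-fold in DLDPL (log2 -0.88 ± 0.27, adjusted p = 0.0161), 2.20-fold in LDPL (-1.13 ± 0.27, adjusted p = 0.00168) and 3.83-fold in DPL (-1.94 ± 0.28, adjusted p = 1.5e-06). Without L replicate 8 the DLDPL fall was not called (adjusted p = 0.0512). SLC2A12 (GLUT12), an insulin-responsive glucose carrier, had 4.45 to 10.6 CPM (median 7.38) in DLDPL, 3.35 to 8.67 CPM (median 5.05) in LDPL, 4.49 to 10.1 CPM (median 5.38) in DPL and 7.97 to 16.2 CPM (median 11.8) in L. It fell 1.60-fold in DLDPL (adjusted p = 0.0171), 2.24-fold in LDPL (adjusted p = 8.88e-05) and 1.78-fold in DPL (adjusted p = 0.00202), with groups that overlapped. Its locus overlaps TBPL1 in the same gene table.

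SLC2A4 (GLUT4) had 2.78 to 6.12 CPM (median 4.08) in DLDPL, 3.12 to 6.53 CPM (median 5.10) in LDPL, 2.22 to 8.39 CPM (median 5.30) in DPL and 2.57 to 5.19 CPM (median 3.53) in L. Its change was 0.23 ± 0.21 in DLDPL (adjusted p = 0.456), 0.45 ± 0.21 in LDPL (adjusted p = 0.106) and 0.60 ± 0.21 in DPL (adjusted p = 0.0233). The DPL call was lost without L replicate 2, without DPL replicate 21 or 30, and by limma. Against DPL it was -0.37 ± 0.21 in DLDPL (adjusted p = 0.338) and -0.15 ± 0.21 in LDPL (adjusted p = 0.763). Of 10 sugar carriers tested, 0 rose and 2 fell in DLDPL and in LDPL, and 1 rose and 2 fell in DPL. That was 20.0%, 20.0% and 30.0% of them, against 21.9%, 29.6% and 38.0% of all genes. In DPL limma on log2(RPKM + 1) called 0 rises and 4 falls among them. Of 14 tested genes of insulin-driven glucose uptake, 2 rose and 2 fell in DLDPL, 5 rose and 3 fell in LDPL, and 2 rose and 4 fell in DPL. The shares called were 28.6% in DLDPL, 57.1% in LDPL and 42.9% in DPL, against 21.9%, 29.6% and 38.0% of all genes in the same comparisons. TBC1D4, the Akt substrate that holds GLUT4 vesicles back, fell by 1.02 ± 0.20 in DLDPL (adjusted p = 0.000343), 1.45 ± 0.20 in LDPL (adjusted p = 1.88e-06) and 1.17 ± 0.20 in DPL (adjusted p = 2.31e-05) on the log2 scale. HK2, the hexokinase that traps glucose in muscle, rose by 1.52 ± 0.30 in DLDPL (adjusted p = 0.000454), 1.17 ± 0.30 in LDPL (adjusted p = 0.00348) and 1.45 ± 0.30 in DPL (adjusted p = 3e-04).

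SLC41A1 (ENSSSCG00000020783), a magnesium carrier of the plasma membrane, was the metal carrier with the highest mean RPKM, at 15.0. It had 45.4 to 92.7 CPM (median 70.0) in DLDPL, 50.6 to 88.2 CPM (median 64.8) in LDPL, 74.1 to 117 CPM (median 86.4) in DPL and 41.4 to 65.2 CPM (median 51.2) in L. All DPL libraries lay above all L libraries, and the crosses lay between with overlap on both sides. It rose 1.81-fold in DPL (log2 0.86 ± 0.14, adjusted p = 1.66e-05) and 1.33-fold in DLDPL (0.41 ± 0.14, adjusted p = 0.034). It was 0.36 ± 0.14 in LDPL (adjusted p = 0.0553). The zinc carriers SLC30A2 (ZnT2, into vesicles) and SLC39A4 (ZIP4, into the cell) were near the limit of detection in L. SLC30A2 had 0.503 to 1.57 CPM (median 0.803) in DLDPL, 0.0858 to 1.52 CPM (median 0.531) in LDPL, 0.335 to 1.91 CPM (median 1.20) in DPL and 0 to 0.376 CPM (median 0.157) in L. DLDPL lay wholly above L, and LDPL and DPL overlapped with it. The change was 2.41 ± 0.49 in DLDPL (adjusted p = 0.000601), 1.72 ± 0.50 in LDPL (adjusted p = 0.0091) and 2.65 ± 0.49 in DPL (adjusted p = 7.63e-05). The LDPL call was lost by limma on log2(RPKM + 1), at 0.19 (adjusted p = 0.144).

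SLC39A4 had 0.139 to 1.30 CPM (median 0.538) in DLDPL, 0.0811 to 2.12 CPM (median 0.837) in LDPL, 0.22 to 2.06 CPM (median 1.04) in DPL and 0 to 0.648 CPM (median 0.231) in L. Its change was 1.08 ± 0.50 in DLDPL (adjusted p = 0.122), 1.76 ± 0.50 in LDPL (adjusted p = 0.00727) and 1.89 ± 0.50 in DPL (adjusted p = 0.00297). SLC39A13 (ZIP13), an intracellular zinc carrier needed for connective tissue, was the called member that ran the other way. It had 7.07 to 9.86 CPM (median 8.09) in DLDPL, 7.84 to 10.9 CPM (median 8.89) in LDPL, 4.13 to 12.0 CPM (median 7.43) in DPL and 9.65 to 13.2 CPM (median 10.4) in L. The change was -0.41 ± 0.14 in DLDPL (adjusted p = 0.0324, lost without any 1 of 7 libraries), -0.27 ± 0.14 in LDPL (adjusted p = 0.141) and -0.49 ± 0.14 in DPL (adjusted p = 0.006). The fibroblast markers COL3A1 and COL1A2 were also lower in DPL, by 2.17 ± 0.30 (adjusted p = 8.16e-07) and 1.49 ± 0.26 (adjusted p = 3.27e-05) on the log2 scale, and their part in this was not tested. Of 18 metal carriers tested, 3 rose and 1 fell in DLDPL, 4 rose and 0 fell in LDPL, and 4 rose and 1 fell in DPL. The shares called were 22.2% in DLDPL, 22.2% in LDPL and 27.8% in DPL, against 21.9%, 29.6% and 38.0% of all genes. Without L replicate 2 the DLDPL count was 1 rise and 1 fall, and limma on log2(RPKM + 1) gave 3 rises and 2 falls in DPL. Of 8 tested metal-binding and handling genes, 2 rose in DLDPL, 3 in LDPL and 2 in DPL, and 0 fell, shares of 25.0%, 37.5% and 25.0% against the same 3 shares of all genes. The copper exporter ATP7A rose by 0.55 ± 0.13 in DLDPL (adjusted p = 0.00214), 0.60 ± 0.13 in LDPL (adjusted p = 0.000571) and 0.44 ± 0.13 in DPL (adjusted p = 0.00706). Its copper chaperone ATOX1 rose by 0.65 ± 0.17 in DLDPL (adjusted p = 0.00446), 0.45 ± 0.17 in LDPL (adjusted p = 0.0359) and 0.56 ± 0.17 in DPL (adjusted p = 0.00781).

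Carriers of inorganic ions moved in both directions. SLC4A10 (ENSSSCG00000015893), a sodium-driven bicarbonate carrier best known from brain, was low throughout. It had 0.724 to 3.57 CPM (median 2.35) in DLDPL, 1.23 to 5.75 CPM (median 2.90) in LDPL, 1.41 to 5.06 CPM (median 2.45) in DPL and 0.163 to 0.62 CPM (median 0.366) in L. No library overlapped with L. SLC4A10 rose 5.79-fold in DLDPL (log2 2.53 ± 0.33, adjusted p = 1.44e-06), 8.12-fold in LDPL (3.02 ± 0.33, adjusted p = 3.96e-08) and 6.96-fold in DPL (2.80 ± 0.33, adjusted p = 7.73e-08). Its L libraries held few reads, so the size of the rise is uncertain. With 1 library left out, the log2 change was 2.395 to 2.679 in DLDPL, 2.829 to 3.166 in LDPL and 2.59 to 2.944 in DPL. Across all 39 other settings it went down to 0.535 in DLDPL, 0.699 in LDPL and 0.571 in DPL, and these calls held. Those settings include limma on log2(RPKM + 1), where the added 1 shrinks the change of a gene that averaged 0.558 RPKM. SLC12A4 (KCC1, ENSSSCG00000028609) is a potassium and chloride exporter that acts in cell volume control. It had 9.50 to 12.6 CPM (median 10.2) in DLDPL, 8.87 to 15.6 CPM (median 10.0) in LDPL, 12.1 to 21.9 CPM (median 18.4) in DPL and 5.19 to 9.19 CPM (median 6.73) in L. DLDPL and DPL lay wholly above L. It rose 1.55-fold in DLDPL (0.63 ± 0.13, adjusted p = 0.0007), 1.59-fold in LDPL (0.67 ± 0.13, adjusted p = 0.000249) and 2.56-fold in DPL (1.36 ± 0.13, adjusted p = 2.4e-09). SLC8A3 (NCX3), the sodium and calcium exchanger of muscle, had 35.4 to 53.9 CPM (median 37.9) in DLDPL, 25.5 to 80.6 CPM (median 51.0) in LDPL, 35.8 to 56.0 CPM (median 50.1) in DPL and 18.9 to 39.4 CPM (median 28.0) in L. It rose 1.48-fold (adjusted p = 0.017), 1.80-fold (adjusted p = 0.00033) and 1.67-fold (adjusted p = 0.000952) in DLDPL, LDPL and DPL.

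SLC4A4 (NBCe1, sodium and bicarbonate cotransport) ran the other way. It had 6.12 to 18.7 CPM (median 12.2) in DLDPL, 4.58 to 14.4 CPM (median 9.68) in LDPL, 5.32 to 8.36 CPM (median 6.21) in DPL and 11.0 to 20.7 CPM (median 16.1) in L. Every DPL library lay below every L library. The change was -0.44 ± 0.19 in DLDPL (adjusted p = 0.0964), -0.78 ± 0.19 in LDPL (adjusted p = 0.00234) and -1.33 ± 0.20 in DPL (adjusted p = 2.6e-06). SLC12A2 (NKCC1) had 64.1 to 173 CPM (median 98.7) in DLDPL, 53.8 to 151 CPM (median 116) in LDPL, 55.7 to 175 CPM (median 96.4) in DPL and 67.8 to 171 CPM (median 121) in L. Its DPL change was -0.21 ± 0.23 (adjusted p = 0.499). It was not called in DLDPL or LDPL. Of 22 ion carriers tested, 4 rose and 1 fell in DLDPL, 4 rose and 4 fell in LDPL, and 3 rose and 2 fell in DPL. That was 22.7%, 36.4% and 22.7% of them, against 21.9%, 29.6% and 38.0% of all genes.

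In the list of lipid, choline and carnitine carriers, SLC44A2 (CTL2, ENSSSCG00000013639), an abundant choline carrier-like protein, was lower in all 3 groups. It had 64.9 to 96.9 CPM (median 73.2) in DLDPL, 59.4 to 85.5 CPM (median 64.7) in LDPL, 44.2 to 71.3 CPM (median 58.3) in DPL and 99.8 to 138 CPM (median 117) in L. All 24 libraries lay below all 8 of L. SLC44A2 fell 1.56-fold in DLDPL (log2 -0.64 ± 0.10, adjusted p = 1.73e-05), 1.74-fold in LDPL (-0.80 ± 0.10, adjusted p = 3.29e-07) and 2.0-fold in DPL (-1.0 ± 0.10, adjusted p = 3.41e-09). SLC10A3, an orphan of the bile acid carrier family, had 6.77 to 9.41 CPM (median 8.47) in DLDPL, 7.62 to 12.7 CPM (median 9.75) in LDPL, 8.57 to 14.1 CPM (median 9.77) in DPL and 5.23 to 8.33 CPM (median 7.45) in L. It rose 1.51-fold in DPL (adjusted p = 0.000251), where no library overlapped with L, and 1.35-fold in LDPL (adjusted p = 0.00744), and was 0.20 ± 0.12 in DLDPL (adjusted p = 0.25). SLC27A1 (FATP1, fatty acid uptake) had 4.21 to 6.88 CPM (median 5.09) in DLDPL, 3.30 to 5.04 CPM (median 4.24) in LDPL, 3.36 to 8.12 CPM (median 6.87) in DPL and 4.66 to 10.3 CPM (median 6.86) in L. It fell 1.66-fold in LDPL (adjusted p = 0.000603) and 1.36-fold in DLDPL (adjusted p = 0.0353, lost without any 1 of 6 libraries, by limma and with no filter), and was -0.22 ± 0.15 in DPL (adjusted p = 0.278). Of 11 tested in this list, 0 rose and 2 fell in DLDPL, 1 rose and 2 fell in LDPL, and 1 rose and 1 fell in DPL. That was 18.2%, 27.3% and 18.2% of them, against 21.9%, 29.6% and 38.0% of all genes.

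Nucleoside carriers differed little. SLC29A1 (ENT1) had 48.2 to 72.2 CPM (median 61.2) in DLDPL, 36.0 to 73.4 CPM (median 61.9) in LDPL, 46.2 to 94.2 CPM (median 73.1) in DPL and 52.0 to 84.4 CPM (median 69.7) in L. Its DPL change was 0.09 ± 0.13 (adjusted p = 0.596). SLC29A2 (ENT2) fell 1.96-fold in LDPL (adjusted p = 0.00311) and 1.62-fold in DPL (adjusted p = 0.023, lost without L replicate 9 or DPL replicate 23), and was -0.57 ± 0.24 in DLDPL (adjusted p = 0.0901). It was the only one called of 7 tested in nucleoside, nucleotide and nucleotide sugar carriers in LDPL and in DPL, and 0 were called in DLDPL. That was 14.3% of them in LDPL and in DPL, against 29.6% and 38.0% of all genes. In DLDPL 21.9% of all genes were called.

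Among organic ion carriers, SLCO2B1 (OATP2B1, organic anions including steroid sulphates) had 1.17 to 3.66 CPM (median 2.36) in DLDPL, 0.867 to 3.15 CPM (median 1.84) in LDPL, 0.844 to 2.49 CPM (median 1.58) in DPL and 2.28 to 6.45 CPM (median 3.04) in L. It fell 1.83-fold in LDPL (adjusted p = 0.0148) and 2.25-fold in DPL (adjusted p = 0.00111), and was -0.60 ± 0.27 in DLDPL (adjusted p = 0.106). SLC22A17, known as a lipocalin 2 receptor, fell 1.68-fold in DPL (adjusted p = 0.00753) and was not called in DLDPL or LDPL. SLC22A3 (OCT3, organic cations and monoamines) rose 2.13-fold in DLDPL (adjusted p = 0.0184) and 2.08-fold in DPL (adjusted p = 0.0132). Limma on log2(RPKM + 1) lost both calls, at an adjusted p = 0.0686 in DLDPL and 0.133 in DPL. It was 0.83 ± 0.34 in LDPL (adjusted p = 0.0605), and its locus overlaps PLG. SLCO3A1 (OATP3A1) rose 1.58-fold in LDPL (adjusted p = 0.00974) and 1.51-fold in DPL (adjusted p = 0.0146), and was not called in DLDPL. The orphan SLC22A23, the list's member with the highest mean RPKM at 3.77, rose 1.55-fold in LDPL (adjusted p = 0.00412). Its log2 change in DPL was 0.385 (adjusted p = 0.0641), and it was not called in DLDPL. Of 8 organic ion carriers tested, 1 rose and 0 fell in DLDPL, 2 rose and 1 fell in LDPL, and 2 rose and 2 fell in DPL. That was 12.5% of them in DLDPL, below the 21.9% of all genes, and 37.5% in LDPL, above the 29.6% of all genes. In DPL 4 of the 8 were called, a share above the 38.0% of all genes. In DPL limma on log2(RPKM + 1) called 0 rises and 2 falls. The phosphate carrier SLC20A2 (PiT2) was called 1.53-fold higher (adjusted p = 0.0422) and the sulphate carrier SLC13A1 1.28-fold lower (adjusted p = 0.0467) in DPL. Both calls sat at the threshold: the first was lost in 10 and the second in 16 of the 32 fits that left out 1 library. The first was also lost by limma, and the second in 5 other settings, DESeq2 among them.

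Between groups with Dapulian ancestry few solute carriers differed. In LDPL against DPL, 1 of 123 was higher and 2 were lower, 2.44% against 2.85% of all genes (1.29% higher, 1.56% lower). The groups did not overlap for 1 higher and 0 lower member (0.0858% and 0.109% of all genes). In DLDPL against DPL, 4 were higher and 1 lower, 4.07% against 4.10% of all genes (1.98% higher, 2.12% lower). The groups did not overlap for 1 higher and 0 lower member (0.234% and 0.156% of all genes). SLC16A12 (MCT12) was that member in both comparisons, higher by 2.10 ± 0.29 in DLDPL (4.27-fold, adjusted p = 0.000122) and by 1.58 ± 0.29 in LDPL (2.98-fold, adjusted p = 0.00355) than in DPL. The potassium and chloride exporter SLC12A4 was 1.65-fold lower in DLDPL (log2 -0.72 ± 0.13, adjusted p = 0.00153) and 1.61-fold lower in LDPL (-0.69 ± 0.13, adjusted p = 0.00417) than in DPL. SLC4A4 was 1.85-fold higher in DLDPL than in DPL (0.89 ± 0.19, adjusted p = 0.00656) and at 0.55 ± 0.19 in LDPL (adjusted p = 0.121). SLC37A4 was 2.08-fold higher in DLDPL than in DPL (1.05 ± 0.27, adjusted p = 0.0213) and at 0.80 ± 0.27 in LDPL (adjusted p = 0.0945). SLC44A2 was 1.28-fold higher in DLDPL (adjusted p = 0.0321, lost in 8 fits that left out 1 library and in the fit of these 2 groups alone) and SLC41A1 was 1.42-fold lower in LDPL (adjusted p = 0.0471, lost in 17 such fits, by limma, with no filter and in the fit of these 2 groups alone). For all of SLC16A12, SLC12A4, SLC4A4, SLC37A4, SLC44A2 and SLC41A1, the medians of both crosses lay on the L side of the DPL median. These genes were picked by their calls against DPL, and the comparisons share the DPL libraries. The pattern is therefore partly set by that choice. In DLDPL against LDPL, 0 of 123 were called by edgeR, limma or DESeq2, against 0% of all genes by edgeR, and 4 had an unadjusted p under 0.05.

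**Figure D4:**
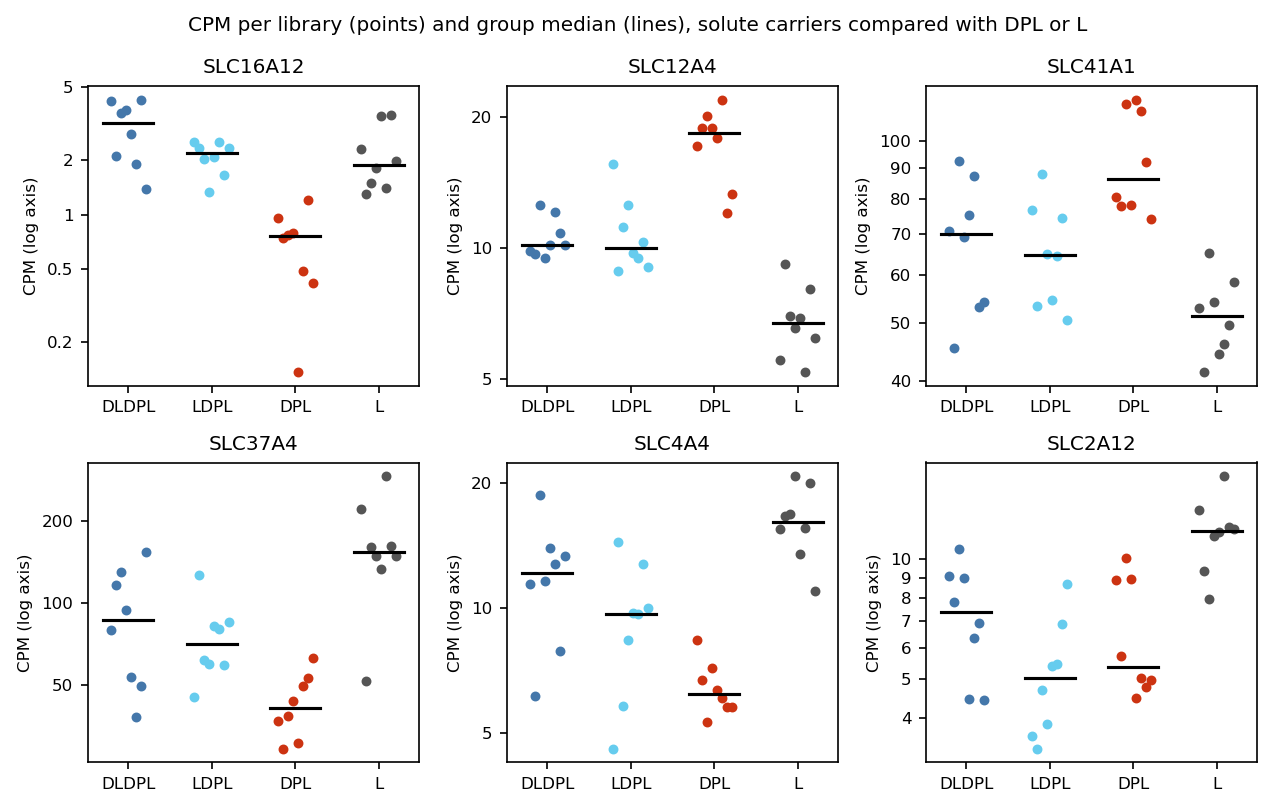
CPM of 6 solute carriers in each library (points, log axis) with the group median (line), 8 libraries per group. All DPL libraries lie below the other 3 groups for SLC16A12, and DPL also lies to one side of DLDPL and LDPL, with overlap, for SLC12A4, SLC41A1, SLC37A4 and SLC4A4, while SLC2A12 differs between L and the rest.

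Variation between pigs of 1 group was also compared with that of SLC19A2, as Pearson's r of log2 CPM deviations from the group means over 32 libraries, a description with no test. The members most like it were the glutamate carrier SLC1A1 at 0.5, the fatty acid carrier SLC27A4 at 0.43, SLC16A9 at 0.43, SLC30A2 at 0.4 and the glutamine carrier SLC1A5 at 0.39. The members that ran most against it were SLC31A2, of the copper carrier family, at -0.5 and SLC38A3 at -0.42. These libraries share depth and scaling, SLC1A1 was at 0 in 4 of 8 L libraries and never above 0.921 CPM, and within groups the values were uneven. For SLC1A1 r was 0.78 in DLDPL, 0.54 in LDPL, -0.02 in DPL and 0.26 in L. For SLC31A2 it was -0.9 in DLDPL, -0.39 in LDPL, -0.3 in DPL and -0.6 in L.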

How the data were processed

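Total RNA was sequenced with a library kit that does not mark strand. The authors deposited, per library, read counts per gene (raw counts, used for all tests), RPKM values (the counts scaled to gene length and total reads, used for levels between genes) and gene lengths in bases. Bowtie 0.12.2, Cufflinks and mm8, a mouse build, appear in the submitters' processing notes, while the identifiers are pig Ensembl identifiers, so no coordinates are given. The pig annotation is not given in the sources used here. Reads of identifiers without a symbol came to 14.5%. Groups come from the labels. Beyond these nothing says that the 32 libraries are separate animals, and if they are not, p-values measure only the spread between samples. No pair within a group agreed within sampling noise (smallest chi-square per degree of freedom 33.7).

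The low-count filter was filterByExpr (edgeR 4.0.16, at least 10 reads, total at least 15), which left 12821 genes with 99.97% of reads. Counts were scaled by TMM and fitted in 1 quasi-likelihood model with 4 group means (common biological coefficient of variation 0.285). P-values were adjusted by Benjamini-Hochberg over all genes tested, and a gene was called under 0.05. CPM values are TMM-scaled. The procedure was tested on simulated data. Alternatives were DESeq2 1.42.0, its size factors, limma 3.58.1 on log2(RPKM + 1) and log2(RPKM + 0.1), no filter, no mitochondrial genes, pairwise fits, a replicate block and each library left out. Genes were named by rule. Per substrate list these were the 3 called with the smallest adjusted p and the 1 with the highest RPKM for DPL against L, and 2 for each other pair. A panel of known muscle carriers and 2 genes per accompanying list were added. Some genes that this rule names, and 1 accompanying list, are not reported here. The members and lists were chosen with earlier results of these data known. SLC4A1AP, SLC66A2 and SLC66A3 belonged to no substrate list.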

Additional observations from a re-analysis of the deposited data

Results flagged for a closer look

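In 148 sets of 8 libraries (37 named genes in 4 groups), 8 held 1 library far from the other 7, and chance flags about 1 in 20 such sets. SLC19A2 reached 13.8 CPM in L replicate 9, against 6.28 to 8.87 CPM in the other L libraries, which is still under every library of DLDPL, LDPL and DPL. SLC37A4 was at 51.7 CPM in L replicate 2, against 133.5 to 292 CPM in the others of L. In L replicate 8, SLC38A2 was at 4.99 CPM, against 8.09 to 10.4 CPM in the others, and SLCO3A1 was at 3.33 CPM, against 6.71 to 10.1 CPM. SLC22A23 reached 14.3 CPM in DPL replicate 21, where the others had 6.09 to 7.61 CPM. SLC29A1 was at 36.0 CPM in LDPL replicate 14, where the others had 59.3 to 73.4 CPM, and at 46.2 CPM in DPL replicate 7, where the others had 68.7 to 94.2 CPM. SLC13A1 reached 4.36 CPM in DLDPL replicate 32, where the others had 2.91 to 3.44 CPM.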

How the results depend on the processing

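Of 66 called results of named solute carriers, 50 were called in each of 39 other settings and 16 were lost in at least 1. Of these, 12 were lost without 1 library, and 0 results reversed. Most of the called results were picked for a small adjusted p in these same data. Many of the fits without 1 library left out a library of neither group compared. The counts of results kept are therefore partly set by these choices. The 39 settings leave out the 2 fits of the 10 libraries with shared numbers, with and without the replicate block. Counts of called members stayed within 1.5 times the reported ones except in 2 settings: DESeq2 called 5 in LDPL against DPL (2 higher, 3 lower), and the replicate block called 22 in LDPL against L (15 higher, 7 lower), where the same 10 libraries without the block gave 27. The 5 numbers that L and LDPL share do not pair the libraries: the correlations of their deviations ran from -0.101 to 0.067. Each of these L libraries correlated better with an LDPL library of another number. The cause of these moves was not tested. Leaving out 1 library gave 17 to 24 called in DLDPL against L, 30 to 36 in LDPL against L, 36 to 45 in DPL against L, 4 to 7 in DLDPL against DPL, 2 to 4 in LDPL against DPL, 0 to 0 in DLDPL against LDPL, and 32 to 42 for any difference. Depth limits low members such as SLC30A2, SLC39A4, SLC1A1 and SLC4A10, where L libraries hold few reads or none.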

Other observations

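Called solute carriers outside the naming rule were chosen after their values were seen. SLC66A3, a carrier relative in no substrate list, had 0.561 to 1.63 CPM (median 1.02) in DLDPL, 0.593 to 1.54 CPM (median 1.10) in LDPL, 0.487 to 1.46 CPM (median 0.986) in DPL and 1.54 to 2.57 CPM (median 2.13) in L. Every DPL library lay below every L library. SLC66A3 fell by 0.93 ± 0.23 in DLDPL (adjusted p = 0.00322), 0.96 ± 0.23 in LDPL (adjusted p = 0.00168) and 1.04 ± 0.23 in DPL (adjusted p = 0.000543) on the log2 scale by edgeR. The glutamate carrier SLC1A3 rose by 0.69 ± 0.24 in DLDPL (adjusted p = 0.0371), 0.66 ± 0.24 in LDPL (adjusted p = 0.0394) and 0.74 ± 0.24 in DPL (adjusted p = 0.0152).

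The chloride and bicarbonate exchangers SLC4A2 and SLC4A3 were lower in some groups than in L. SLC4A3 was at -1.0 ± 0.26 in DLDPL (adjusted p = 0.00558), -0.87 ± 0.26 in LDPL (adjusted p = 0.0112) and -0.34 ± 0.26 in DPL (adjusted p = 0.312). SLC4A2 was at -0.57 ± 0.23 in DLDPL (adjusted p = 0.0693), -0.69 ± 0.23 in LDPL (adjusted p = 0.0224) and -0.75 ± 0.23 in DPL (adjusted p = 0.0102). The anion exchanger SLC26A6 was higher by 0.63 ± 0.18 in DLDPL (adjusted p = 0.00904) and 0.62 ± 0.18 in LDPL (adjusted p = 0.00703), and was at 0.28 ± 0.18 in DPL (adjusted p = 0.202). SLC38A3, a glutamine carrier among the most abundant at 20.3 RPKM, had 32.5 to 95.0 CPM (median 41.2) in DLDPL, 26.4 to 70.6 CPM (median 46.7) in LDPL, 22.8 to 59.9 CPM (median 34.8) in DPL and 36.4 to 79.2 CPM (median 63.1) in L. It was at -0.64 ± 0.23 in DPL (adjusted p = 0.026). It was at -0.18 ± 0.23 in DLDPL (adjusted p = 0.603) and -0.27 ± 0.23 in LDPL (adjusted p = 0.399), which were not called.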
